A study of Rattus norvegicus with 8 samples.

Results

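The genes of the retinal pigment epithelium (RPE) and the visual cycle were described across 8 rat retinas. The 9 members were Rpe65, Lrat, Rdh5, Rgr, Ttr, Best1, Tyr, Tyrp1 and Dct, looked for by gene name among the spots that are not controls. Of these, 8 were found among the 26334 gene names on the array, with 10 spots on each array, and 6 members with 7 spots passed the filter on dim spots, which kept 16307 genes in all. Whole retinas were freshly dissected from female Lister Hooded rats, a pigmented strain. The methods give the rats as 8 weeks old and do not give the age at dissection separately. The ONC group had its optic nerve crushed inside the orbit, 3 mm behind the disc and for 10 s, and the CTR group had sham surgery. Retinas were taken 2 weeks after surgery, and 4 retinas of either group were profiled singly. A whole retina mixes all retinal cell types with whatever adjoining tissue adheres to it, so fewer cells of a type and less RNA per cell cannot be told apart here.

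The labels and the methods give different layouts for the 4 arrays, which lie on 1 slide. By the labels, a CTR retina in Cy5 (red) was hybridized with the equally numbered ONC retina in Cy3 (green), so that label and dye cannot be told apart. By the methods, each array carried retinas of a single group, and the dye given by both sources is the same only for CTR2, CTR4, ONC1 and ONC3. Channels are called here by their labels. Markers of the retina were checked first. Spots of Gnat1 (rods), Rlbp1 (Muller glia) and Pou4f2 and Nefm (retinal ganglion cells, RGCs) were well above background in all 8 channels, as marked by the scanner software. For Pou4f2, a transcription factor of RGCs, the channels labelled CTR1 to CTR4 had log2 levels of -4.04, -0.52, -3.95 and -3.02, and those labelled ONC1 to ONC4 had -0.03, -0.04, -0.05 and -3.14. CTR2 thus lay with ONC1, ONC2 and ONC3, ONC4 lay with the other CTR channels, and the mean was higher for ONC. That direction is opposite to the one the study gives for RGC markers after crush. Every difference below is therefore one between channel labels, ONC minus CTR.

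The RPE is a single layer of pigmented cells behind the photoreceptors. In the visual cycle it turns all-trans retinol from the photoreceptors back into 11-cis retinal, the form that photoreceptors use to detect light: LRAT makes retinyl esters, RPE65 isomerizes them to 11-cis retinol and RDH5 oxidizes that to 11-cis retinal. Its melanin is made from tyrosine by tyrosinase (TYR), with TYRP1 and DCT acting on later intermediates, and the neural retina has no melanosomes of its own.

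Levels are log2 values of background-subtracted intensity after loess within each array, with each channel centred on its median gene spot. They can be compared between channels for a gene and not between genes. The filter asked for a foreground of at least 2 times the local background in all 8 channels. That ratio decided which members could be compared between labels. For Ttr it was 796 to 1281 in CTR and 757 to 1596 in ONC channels. For Tyr, the enzyme that starts melanin synthesis, it was 1.32 to 1.52 in CTR and 3.04 to 4.20 in ONC channels. The spot of Tyr was well above background in 0 of 4 CTR channels and in 1 of 4 ONC channels, ONC1, so no fold is given for it. Best1, a chloride channel of the basal RPE membrane, had ratios of 1.92, 2.28, 1.55 and 1.51 in CTR and 2.87, 4.49, 2.77 and 2.74 in ONC channels. It was well above background in 4 of 4 CTR channels and in 1 of 4 ONC channels, ONC2, and failed the filter through the CTR channels. Lrat has a pair of spots, and the spot nearer to the transcript start was well above background in 0 of 8 channels, with ratios of 1.27 to 1.60 in CTR and 2.57 to 2.99 in ONC channels. No spot carries the name Rdh5. A spot named by a transcript identifier, which its description gives as Rdh5, lies outside the rule by which members were found. Its ratio was at most 1.74 in CTR channels, under the filter in all 4, and 2.70 to 3.46 in ONC channels, and it was well above background in 2 of 4 CTR and 0 of 4 ONC channels. The ratio was higher in the ONC channels for all 4 of these dim spots, and over all spots as well: 71.9% to 75.0% reached 2 times background in CTR channels and 98.2% to 99.9% in ONC channels. The median local background was 26.0 to 29.5 in Cy3 and 55.0 to 56.5 in Cy5.

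**Figure D1:**
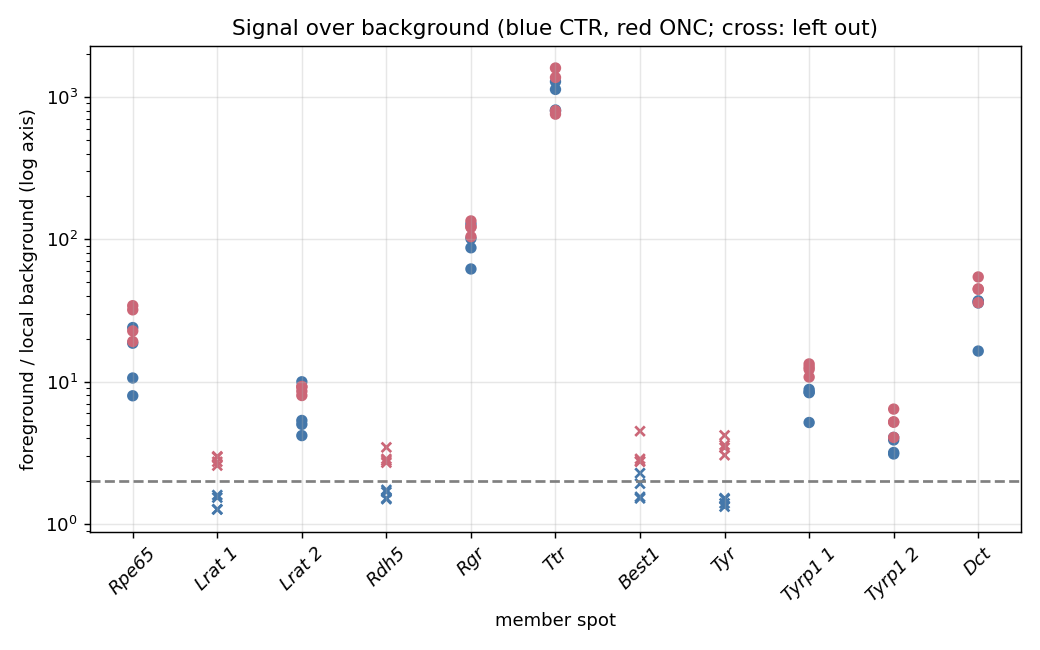
Foreground over local background (vertical log axis, no unit) for every member spot (horizontal axis) in the 4 CTR (blue) and 4 ONC (red) channels, with crosses for spots left out and a dashed line at 2. The spots of Best1 and Tyr, the first spot of Lrat and the spot described as Rdh5 reach below the line in CTR channels, and Ttr lies between 757 and 1596.

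The letters of 4 spots are given because they show which stretch of each melanin enzyme and of Best1 was measured, 2 that passed the filter (Tyrp1 and Dct) and 2 that did not (Tyr and Best1). On build rn4, as the files give it, the spots lie at chr5:99536404-99536463 on the plus strand for Tyrp1, and on the minus strand at chr15:102798719-102798778 for Dct, chr1:143642768-143642827 for Tyr and chr1:212434425-212434484 for Best1. All are written 5′ to 3′ along the transcript, in lower case throughout, since no base in them is singled out.
Tyrp1: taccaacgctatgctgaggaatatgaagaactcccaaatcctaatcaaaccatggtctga
Dct: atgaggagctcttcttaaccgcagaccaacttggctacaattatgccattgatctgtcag
Tyr: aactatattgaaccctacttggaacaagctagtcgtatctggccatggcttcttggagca
Best1: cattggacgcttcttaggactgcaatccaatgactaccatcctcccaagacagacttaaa

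Among the visual cycle enzymes, Rpe65, the isomerase, showed the widest difference between labels. Its spot lies at chr2:257879077-257879136 (rn4, plus strand). Its log2 level was -0.47, -0.54, -1.82 and -1.08 for CTR1 to CTR4, and 0.14, -0.95, 0.10 and -0.05 for ONC1 to ONC4. Levels were high in ONC1, ONC3 and ONC4 and lowest in CTR3, and ONC2 lay below CTR1 and CTR2, so the groups overlapped. The CTR mean was -0.98 ± 0.62 (SD, n = 4), and the ONC mean was -0.19 ± 0.52 (SD, n = 4). The difference was 0.79 with an SE of 0.34 (95% interval 0.03 to 1.54), 1.72-fold, at an unadjusted p of 0.0437 and an adjusted p of 0.256 over all genes by limma. It was positive on 3 of 4 arrays, at 0.61, 1.92 and 1.03 on arrays 1, 3 and 4, and -0.41 on array 2. With the array as a replicate block in limma, the unadjusted p was 0.0599. Without CTR3 the difference was 0.51 (limma unadjusted p = 0.114), and without ONC2 it was 1.04 (limma unadjusted p = 0.00848).

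Lrat, which esterifies retinol and is read at chr2:174636541-174636600 (rn4, minus strand), had log2 levels of -2.43, -2.66, -2.73 and -1.39 for CTR1 to CTR4, and -1.63, -3.03, -1.93 and -1.53 for ONC1 to ONC4. CTR4 was the highest of the 8 channels and ONC2 the lowest, and the groups overlapped. The difference of 0.27 with an SE of 0.38 (limma adjusted p = 0.766) was smaller than the SD of 0.62 in the CTR channels. It was 0.11 without ONC4 and 0.60 without ONC2.

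Rgr encodes a retinal-binding opsin of RPE and Muller glia, read at chr16:13242760-13242819 (rn4, minus strand). Its log2 level was 2.13, 1.93, 1.41 and 2.13 for CTR1 to CTR4, and 2.26, 1.21, 2.13 and 2.27 for ONC1 to ONC4. CTR3 and ONC2 were low, the other 6 channels lay between 1.93 and 2.27, and the groups overlapped. The difference was 0.07 with an SE of 0.26 (limma adjusted p = 0.918), and it turned to -0.09 without CTR3.

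Ttr encodes the carrier of thyroxine and, through retinol-binding protein, of retinol. It is read at chr18:12413621-12413680 (rn4, plus strand). Its log2 level was 5.38, 5.14, 5.02 and 6.04 for CTR1 to CTR4, and 5.90, 4.44, 5.88 and 5.80 for ONC1 to ONC4. ONC2 was the lowest channel and CTR4 the highest, and the labels overlapped over most of their range. The difference of 0.11 with an SE of 0.35 (limma adjusted p = 0.906) changed sign to -0.16 when channels were scaled to their median without loess.

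Of the melanin genes, Tyrp1 had a narrower range than Dct. Its log2 level, the mean of its pair of spots, was -2.34, -2.63, -2.72 and -2.11 for CTR1 to CTR4, and -1.98, -2.82, -2.16 and -2.05 for ONC1 to ONC4. ONC2 was again the lowest, and the groups overlapped. The difference was 0.19 with an SE of 0.20 (limma adjusted p = 0.665), and it was 0.33 for the spot at chr5:99536772-99536831 and 0.06 for the spot shown above. The first spot had log2 levels of -1.57, -1.99, -2.29 and -1.53 for CTR1 to CTR4, and -1.23, -2.04, -1.47 and -1.35 for ONC1 to ONC4. The spot shown above had -3.11, -3.27, -3.14 and -2.69 for CTR1 to CTR4, and -2.74, -3.60, -2.86 and -2.76 for ONC1 to ONC4. Either spot had its lowest ONC value in ONC2. The difference of Tyrp1 was 0.47 without loess, and it lay between 0.10 without ONC1 and 0.38 without ONC2.

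Dct, the dopachrome tautomerase, followed other channels. Its log2 level was 0.83, -1.23, 0.82 and 0.63 for CTR1 to CTR4, and 0.58, -0.28, 0.47 and 0.71 for ONC1 to ONC4. It was low in CTR2 and ONC2, which by the labels share array 2, and lay between 0.47 and 0.83 in the other 6 channels, where both labels overlapped. The difference was 0.10 with an SE of 0.45 (limma adjusted p = 0.932), and it turned to -0.40 without CTR2. As a ratio of mean linear levels, which the methods use, its log2 value was -0.05.

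**Figure D2:**
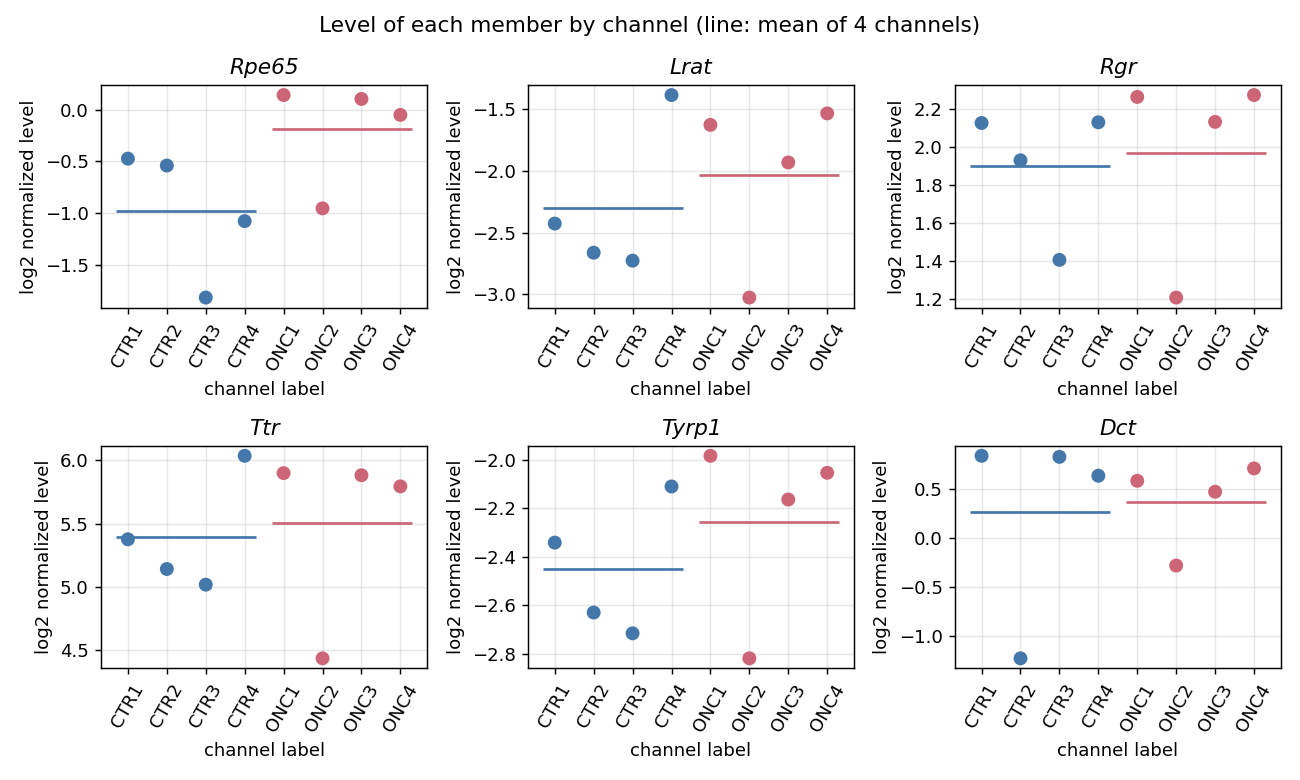
Log2 normalized level (vertical axes, each with its own scale) of the 6 members that passed the filter, by channel label (horizontal axes), with CTR in blue, ONC in red and a line at the mean of the 4 channels of a label. ONC2 is the lowest channel for Lrat, Rgr, Ttr and Tyrp1, and CTR2 for Dct.

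By limma, 0 of the 6 members were called at an adjusted p under 0.05, where 0.497% of all genes tested were. At an unadjusted p under 0.05 there was 1 member, Rpe65, against a background of 18.6%. With the array as a replicate block in limma there were 0 at an unadjusted p under 0.05, against 31.3%. After adjustment the block called 0 members, against 7.69% of all genes. The 4 CTR and 4 ONC levels did not overlap for 0 members, against 12.7% of all genes, and 0 members had a single sign on all 4 arrays, against 39.4%. All 6 differences were above 0 with loess, where 47.4% of all genes tested were higher in ONC. The median of the 6 was 0.15 beside -0.01 over all genes tested. Several members varied together across channels, so these are not 6 independent signs. That common sign was not kept without loess, where Ttr was below 0, or with CTR2, CTR3, ONC1, ONC3 or ONC4 left out, where Rgr, Ttr or Dct was. Nor was it kept for the ratio of mean linear levels, where Dct was below 0. These 6 are the members bright enough in the red channels, not all 9. The criterion of the methods, which adds to a test a fold-change threshold set by the variability of the gene between retinas, was met by 0 of the 6 members, against 3.08% of all genes. With only CTR2, CTR4, ONC1 and ONC3, whose dye is the same in both sources, the difference was 0.93 for Rpe65, 0.24 for Lrat, 0.17 for Rgr, 0.30 for Ttr, 0.30 for Tyrp1 and 0.82 for Dct. In this set both CTR channels were in Cy5 and both ONC channels in Cy3, so label and dye cannot be told apart. It includes CTR2, where Dct was lowest and where Pou4f2 lay with ONC1 and ONC3. The SE of the difference of Dct was 0.63 in this set. The limma unadjusted p of Rpe65 was 0.00844 in it, and its adjusted p was 0.384, within 0.121 to 0.635 over its alternatives.

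**Figure D3:**
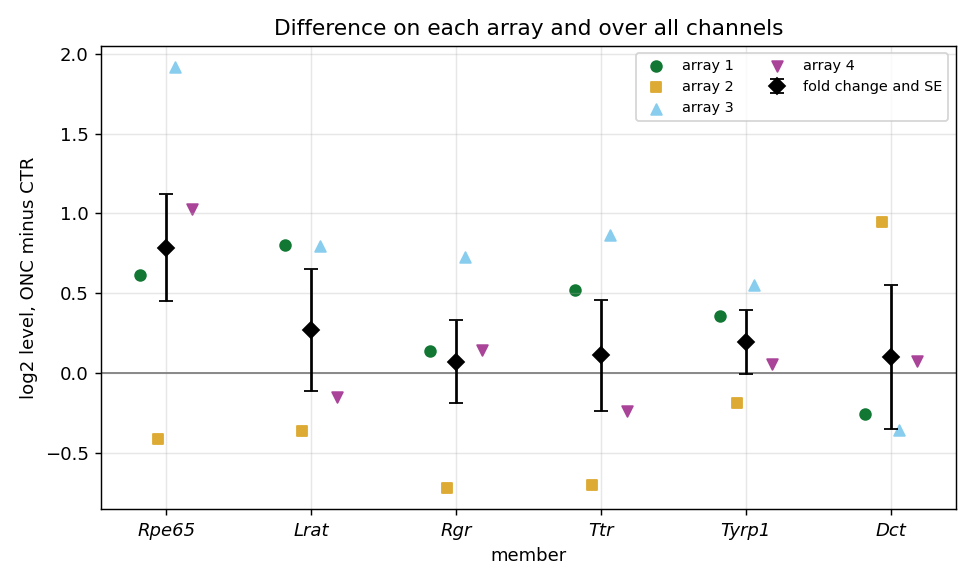
Difference in log2 level, ONC minus CTR (vertical axis), for each member that passed the filter (horizontal axis), on each of the 4 arrays (coloured symbols) and as the difference of means with its SE (black diamonds, n = 4 channels of either label). Array 2 is below 0 for 5 members and at 0.94 for Dct, and no member has all 4 arrays on the same side of 0.

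The spread from retina to retina is given as a range and by the measures of the study. Over the 8 channels, the log2 range was 2.06 for Dct, 1.96 for Rpe65, 1.64 for Lrat, 1.60 for Ttr, 1.07 for Rgr and 0.83 for Tyrp1, beside a median of 0.57 over all genes. The range of Dct was wider than that of 98.7% of all genes tested, that of Rpe65 wider than 98.5%, and that of Tyrp1 wider than 76.9%. As a ratio, the highest channel was 4.17-fold over the lowest for Dct and 3.88-fold for Rpe65. Single channels carried much of 3 of these ranges. The range was 1.12 for Dct without CTR2, 1.22 for Rpe65 without CTR3 and 1.02 for Ttr without ONC2, wider than that of 90.8%, 93.0% and 88.8% of all genes over the same 7 channels. The relative expression variability (REV, a percentage built on the coefficient of variation among the 4 retinas of a label) was 80.7 for Rpe65, 108 for Lrat, 45.9 for Rgr, 74.1 for Ttr, 28.9 for Tyrp1 and 100.3 for Dct in the CTR channels, beside a median of 25.1 over all genes. The CTR values of Dct and Rpe65 include those channels. The ONC channels gave 63.9 for Rpe65, 81.7 for Lrat, 63.1 for Rgr, 80.2 for Ttr, 31.6 for Tyrp1 and 57.2 for Dct. The median was 21.7. The ONC values of Rgr and Ttr include ONC2, at a log2 level of 1.21 for Rgr and 4.44 for Ttr. That channel lay far from the other ONC channels for both genes. The gene expression stability (GES, the percentage rank with the most stable genes at the top) of Lrat was 0.72 in the CTR and 2.42 in the ONC channels, and that of Tyrp1 40.7 and 29.5.

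As a gauge of adhering tissue, the level of each member was set against its own mean over the 8 channels and the median over the 6 members was taken in each channel. This gauge was 0.06, -0.29, -0.48 and 0.28 for CTR1 to CTR4, and 0.41, -0.66, 0.22 and 0.37 for ONC1 to ONC4. The gauge was lowest in ONC2 and highest in ONC1 (ONC4 without loess), all labelled ONC, and the values of the labels overlapped. All 6 members were above their own mean in ONC1, ONC3 and ONC4, and 0 of 6 were in ONC2. In CTR2 and CTR3 a single member was above its mean, Rpe65 in CTR2 by 0.04 and Dct in CTR3 by 0.51. The members were thus at odds in CTR3, where the deviation of Rpe65 was -1.23. In CTR2 that of Dct was -1.54, while those of Lrat, Ttr and Tyrp1 were -0.50, -0.31 and -0.28.

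Likeness between members was measured as Pearson r over the 8 channels after the mean of each label was taken off, as a description with no test, since channels on an array are not independent. Lrat, Ttr and Tyrp1 were close to each other, with r of 0.96 for Lrat and Ttr. Places among all genes depend on which member they are counted from. Among the other 16306 genes, Ttr was the 11th most like Tyrp1 (r = 0.97), Lrat was the 31st (r = 0.96), and Rgr was the 105th (r = 0.93). For Lrat, Ttr was the 67th and Tyrp1 the 70th, and for Ttr, Tyrp1 was the 13th and Lrat the 38th. Rgr was nearest to Tyrp1 (place 29), followed by Ttr (r = 0.90, place 87), Rpe65 (r = 0.86, place 179) and Lrat (r = 0.83, place 302). Rpe65 was nearest to Rgr (place 75) and less like Tyrp1 (r = 0.65, place 738), Ttr (r = 0.60, place 993) and Lrat (r = 0.46, place 2116). Dct stood apart, with r of 0.52 to Tyrp1, 0.49 to Lrat, 0.47 to Ttr, 0.28 to Rgr and -0.09 to Rpe65. The places of these members ran from 5619 (Tyrp1) to 11505 (Rpe65). Every r of Dct includes CTR2, where the deviation of Dct was -1.54. These r values depend on that channel, and r was not taken without it. The r values among Lrat, Ttr, Tyrp1 and Rgr likewise include ONC2, the lowest of the 8 channels for each. Their deviations there were -0.86, -1.01, -0.47 and -0.73, and r was not taken without ONC2 either. The 3 genes most like each member had r from 0.963 (Pparg) to 0.997 (Chst13). They were Bora, a transcript described as similar to L antigen family member 3, and Pparg for Rpe65; Tf (transferrin), Klhl17 and Zfp106 for Lrat; and Prr5, an uncharacterized transcript and Phospho2 for Rgr. For Ttr they were an unnamed transcript, Prkca and Rap1gds1. For Tyrp1 they were Myom1 and a pair of unnamed transcripts, and for Dct Chst13, an unnamed transcript and a transcript described as Haghl.

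The upstream sequences of 4 members are shown, those that passed the filter and hold a match to a motif searched. All 9 members were matched by symbol in the RefSeq promoter table (build GRCr8). The 250 bases before the start were searched on both strands for TCATGTG, the core of the M-box of melanocyte and RPE genes, and for TAATCC, a site of OTX and CRX homeodomain proteins. These motifs do not overlap each other. TCATGTG was found in 3 members, Tyr, Tyrp1 and Dct, and in 3.07% of all 33469 promoters. Its first base lay 121 bases before the start in Tyr, 68 in Tyrp1 and 138 in Dct. TAATCC was found in 4 members, Rpe65, Rgr, Tyrp1 and Dct, and in 6.34% of all promoters. Lrat and Ttr passed the filter and held neither. A match is a description of letters and not a bound site. The windows are chr2:251425118-251425367 (plus strand) for Rpe65, chr16:12836487-12836736 (minus) for Rgr, chr5:100326875-100327124 (plus) for Tyrp1 and chr15:101508030-101508279 (minus) for Dct, with matches on either strand in capitals.
Rpe65: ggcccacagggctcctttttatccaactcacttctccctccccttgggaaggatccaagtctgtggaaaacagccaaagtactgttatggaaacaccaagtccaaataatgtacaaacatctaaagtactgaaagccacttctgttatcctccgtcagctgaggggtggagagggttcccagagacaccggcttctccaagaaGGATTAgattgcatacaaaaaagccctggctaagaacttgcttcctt
Rgr: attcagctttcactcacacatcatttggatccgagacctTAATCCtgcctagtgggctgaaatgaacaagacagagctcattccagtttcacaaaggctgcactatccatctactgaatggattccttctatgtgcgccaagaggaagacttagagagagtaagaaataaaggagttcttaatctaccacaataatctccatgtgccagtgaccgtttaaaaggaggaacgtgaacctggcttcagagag
Tyrp1: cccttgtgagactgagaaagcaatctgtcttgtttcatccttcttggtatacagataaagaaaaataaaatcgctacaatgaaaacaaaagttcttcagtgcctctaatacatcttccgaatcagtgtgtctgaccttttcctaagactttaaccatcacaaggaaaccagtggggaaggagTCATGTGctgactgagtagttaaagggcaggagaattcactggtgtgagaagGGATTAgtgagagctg
Dct: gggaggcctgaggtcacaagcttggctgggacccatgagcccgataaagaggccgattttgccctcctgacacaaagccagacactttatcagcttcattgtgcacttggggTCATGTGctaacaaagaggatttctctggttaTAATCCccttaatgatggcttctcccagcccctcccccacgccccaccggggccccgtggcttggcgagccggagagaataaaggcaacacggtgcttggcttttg

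Other lists of genes were read beside the members, and limma called 0 genes in any of them at an adjusted p under 0.05. The counts below stand beside 18.6% of all genes at an unadjusted p under 0.05 and 7.69% called with the replicate block. From each list but those of rods and bipolar cells, the 3 genes with the widest range over the 8 channels are named. Of 20 other retinoid genes 17 passed the filter, 8 higher and 9 lower in ONC, with a median difference of -0.04; 4 had an unadjusted p under 0.05 and 2 were called with the replicate block. Rbp3, the retinoid carrier between photoreceptors and RPE, differed by -0.38, Stra6, the retinol transporter of the RPE, by 0.46, and Rdh12, a retinol dehydrogenase of photoreceptors, by -0.04. The called genes were Rbp3 (limma block adjusted p = 0.0334) and Stra6 (0.0394), each with a single sign on all 4 arrays. Of 19 other RPE genes 14 passed, 8 higher and 6 lower, with a median of 0.06, 3 at an unadjusted p under 0.05 and 1 called with the block. They include Gulp1, an engulfment adaptor, at 0.63 (limma block adjusted p = 0.0358, higher on 4 of 4 arrays), Serpinf1, which encodes pigment epithelium-derived factor, at -0.65, and Krt18, a keratin, at 0.34. Of 13 other melanosome genes 7 passed, 3 higher and 4 lower, with a median of -0.04, 0 at an unadjusted p under 0.05 and 1 called with the block. Slc24a5, a melanosomal exchanger, differed by 0.66 (limma block adjusted p = 0.0419, higher on 4 of 4 arrays), Pmel, which forms melanosome fibrils, by -0.17 and Mlph, which links melanosomes to myosin, by -0.21.

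The gauge was set beside these lists channel by channel. The median deviation of the 14 other RPE genes was -0.04, -0.14, -0.08 and 0.25 for CTR1 to CTR4, and -0.01, -0.23, 0.04 and 0.15 for ONC1 to ONC4. It was lowest in ONC2 and highest in CTR4. A lowest median in ONC2 was not particular to RPE genes. The rod (-0.29), Muller glia (-0.20), bipolar cell (-0.13), scleral (-0.24), corneal (-0.29) and other retinoid genes (-0.10) also had theirs there. Like the gauge, the blood (0.46) and bipolar cell genes (0.30) had their highest median in ONC1. The remaining lists had theirs in other channels. The summed linear level of the 14 other RPE genes was 61.2, 60.8, 75.4 and 68.0 for CTR1 to CTR4, and 61.9, 61.9, 77.0 and 86.5 for ONC1 to ONC4, with most signal from Otx2, which the neural retina also expresses. The gene named is the one that adds most signal over the 8 channels together, though not in every channel for each list, and since signal depends on the probe this is no measure of abundance. The 7 other melanosome genes had medians of 0.02, -0.23, -0.05 and 0.34 for CTR1 to CTR4, and 0.14, -0.24, 0.06 and 0.09 for ONC1 to ONC4, lowest in ONC2 as well. Their summed level was 2.83, 2.52, 3.18 and 4.02 in the CTR and 3.62, 2.64, 3.67 and 4.12 in the ONC channels, with most signal from Slc24a5, and 3 of the 13 were well above background in 0 channels. The part of other tissue in the spread of the members was not tested beyond these values.

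Lens and RGC genes followed different channels from the gauge. The 14 of 18 lens genes that passed had medians of -0.09, 1.23, 0.05 and -0.32 for CTR1 to CTR4, and -0.55, 0.13, -0.64 and 0.37 for ONC1 to ONC4, with summed levels of 92.4, 245, 116 and 78.6 and of 68.2, 110.3, 68.4 and 143, with most signal from Crygs. CTR2, where Dct was lowest, was thus the highest channel of the lens genes. The 8 RGC genes that passed, of 9 listed, had summed levels of 3.35, 23.8, 4.02 and 4.34 for CTR1 to CTR4, and 27.5, 27.4, 28.7 and 3.65 for ONC1 to ONC4, with most signal from Sncg. ONC2, the lowest channel of the gauge, was among the high channels of the RGC genes. Of ONC1 and ONC4, the highest of the gauge, ONC1 was among the high and ONC4 among the low channels of the RGC genes.

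**Figure D4:**
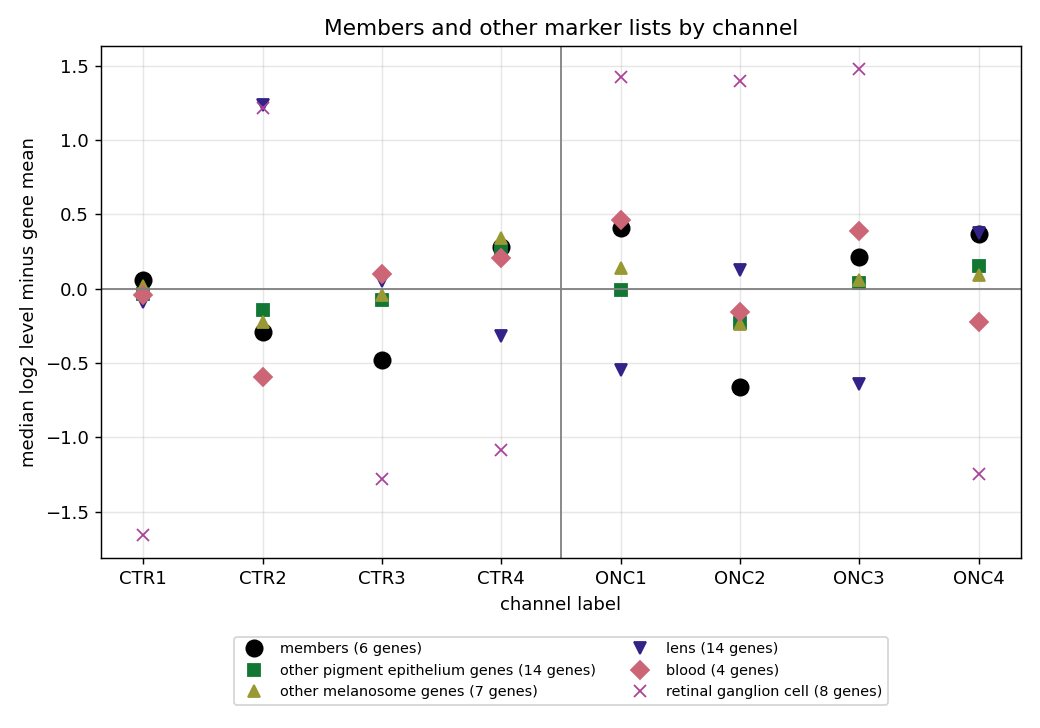
Median deviation in log2 level from the 8-channel mean of a gene (vertical axis) by channel label (horizontal axis), for the 6 members and for 5 other lists, with the number of genes in brackets. The members run from -0.66 in ONC2 to 0.41 in ONC1, the lens genes peak in CTR2 at 1.23, and the RGC genes are above 1 in CTR2, ONC1, ONC2 and ONC3.

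For the remaining lists, each median is of the difference between labels, followed, except for rods and bipolar cells, by the 3 genes of widest range. The median was -0.37 for lens genes (Lgsn, Cryba1 and Cryba2; 1 of 14 at an unadjusted p under 0.05) and 1.44 for RGC genes (Slc17a6, Pou4f2 and Nefh; 0 of 8), with 0 called with the block in either. It was -0.15 for 4 of 6 choroid and ciliary body genes (Aqp1, Plvap and Car4), -0.03 for 5 of 7 scleral genes (Col1a2, Fmod and Col1a1) and -0.02 for 4 of 7 corneal genes (Krt12, Aldh3a1 and Krt14). It was 0.15 for 4 of 6 blood genes (Alas2, Hba1 and Hbb), which were lowest in CTR2 at -0.59, and -0.04 for 4 of 7 skeletal muscle genes (Ckm, Acta1 and Myh1). It was 0.04 for 5 of 7 oligodendrocyte genes (Cnp, Mag and Mbp), -0.11 for 8 rod genes, 0.18 for 5 bipolar cell genes and -0.10 for 4 Muller glia genes (Glul, Slc1a3 and Aqp4). At an unadjusted p under 0.05 there were 2 choroid, 1 muscle, 2 oligodendrocyte, 3 rod, 2 bipolar and 1 Muller glia genes, and 0 in the sclera, cornea and blood lists. With the block in limma, Plvap (-0.47, adjusted p = 0.0318), Cnp (-0.75, 0.029) and Slc1a3 (-0.56, 0.0336) were called, each lower for ONC on 4 of 4 arrays, and 0 genes of the sclera, cornea, blood and muscle lists were. Rlbp1 is in both the retinoid and the Muller glia list.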

How the data were processed

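RNA of 8 retinas was read on 4 arrays, whose number limits the precision. The authors deposited scanner files with the intensity of each spot and channel, its local background and the software's flags. The file headers name Feature Extraction 12.0.3.1, the labels 11.1.19.1. Controls, spots with any of 3 outlier flags (feature non-uniformity, feature population, background non-uniformity) and spots under 2 times background in any of 8 channels were dropped, leaving 27371 spots, 18599 probes and 16307 genes. The background flag was added after a first fit had been seen, because the number of spots then equals that of an earlier processing of these data. Without it there were 27587 spots, 18747 probes and 16422 genes, with 80 genes called rather than 81 and 0 members called either way.

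After subtraction of background, values were normalized by loess in each array (span 0.3) and centred on the channel median, and spots, then probes, were averaged. limma 3.58.1 in R 4.3.3 compared labels unpaired (two-sided, Benjamini-Hochberg over all genes, call at an adjusted p under 0.05), and the fit was tested on simulated data. Channels of the same number, which share an array by the labels, deviated together (r = 0.15, 0.55, 0.40 and 0.49 across genes, which are not independent replicates), though CTR1 was closer to ONC2 (r = 0.17) than to ONC1. The array was therefore also used as a block. Tables and figures used Python 3.11.15, pandas 2.3.3 and matplotlib 3.10.9.

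The members and lists were chosen with earlier results of these data known. Named were all members, from each other list except rods and bipolar cells the genes called and the 3 of widest range, the 3 genes most like each member that passed the filter, and markers of the retina. The genes that add most signal to a summed level were named after their values were seen. List symbols without a spot of that name were matched by synonym, accession or description. Alternatives changed the background, normalization, filter, probes, flags, block, test and retinas.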

Additional observations from a re-analysis of the deposited data

Results flagged for a closer look

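Of 14 sets of 4 values (6 members and the gauge, by label), 3 held a channel far from the other 3 of its label. For a single set, chance marks about 1 in 20. The sets are not independent: those of a label share the same 4 retinas, and the gauge is made from the members. Their count was therefore not tested against chance. Rgr was at a log2 level of 1.21 in ONC2, with a gap to the nearest ONC channel of 0.868 of the range. Ttr was at 4.44 in ONC2, with a gap of 0.928 of the range. Dct was at -1.23 in CTR2, with a gap of 0.902 of the range. The cause was not tested.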

How the results depend on the processing

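In the 22 alternatives 0 members were called. The median difference of the members that passed stayed above 0 in all 19 alternatives that gave one, from 0.06 without ONC4 to 0.42 without ONC2. The gauge was lowest in ONC2 in its 9 alternatives and highest in ONC1, except without loess, where ONC4 was at 0.43 and ONC1 at 0.42. Ttr turned to -0.16 without loess. With a retina left out, Rgr lay between -0.093 and 0.33 (below 0 without CTR3, ONC1 or ONC4), Ttr between -0.022 and 0.47 (below 0 without CTR3, ONC1 or ONC3) and Dct between -0.40 and 0.32 (below 0 without CTR2 or ONC4), while Rpe65 lay between 0.51 and 1.04, Lrat between 0.11 and 0.60 and Tyrp1 between 0.10 and 0.38. Dct was also at -0.05 as a ratio of mean linear levels. The cause was not tested. Low signal over background limits Best1, Tyr, a Lrat spot and the spot described as Rdh5.

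Over all genes, limma called 81 (38 higher for ONC). It called 3194 without loess (2267 higher), 21 with the processed signal, 14 with normexp, 412 with Aquantile, 123 with the filter on spots well above background, 124 with the brightest probe and 1254 with the replicate block. It called 0 with normexp and no filter, 0 with the filter at 1.5 times background and 0 with only CTR2, CTR4, ONC1 and ONC3, where 1957, 3070 and 1961 genes had an unadjusted p under 0.05. With a retina left out it called 38 without ONC2 and 0 without any other; unadjusted, 2085 to 3252 genes had a p under 0.05 there. The test of the methods called 2682 genes unadjusted, 0 after Benjamini-Hochberg and 503 with its fold-change threshold. That last alternative and the fit without the background flag (80 called) were chosen after seeing the data.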
